A study of Mus musculus with 21 samples.

Results

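Oocytes of aged mice that had received human mesenchymal stem cells from the umbilical cord (UC-MSCs) of the LRP1high type were compared with oocytes of young mice by RNA sequencing. The members were chosen from the library titles alone and were the 3 Aged + LRP1high and the 3 Young oocyte libraries, 6 of the 21 libraries of the series. Young mice were 6 to 8 weeks old and received no cells. Aged + LRP1high mice were 18 months old and were sampled 3 weeks after the cells, sorted by flow cytometry for a high level of the receptor LRP1, had been placed under the ovarian capsule. All animals were female ICR mice, and the oocytes were labelled as metaphase II (MII) oocytes of the ovaries. Age and transplantation differ together between these groups, so their parts in a difference cannot be told apart here. The 2 Aged libraries without cells are given beside some genes only to show their level.

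A growing oocyte transcribes and stores the mRNAs on which meiosis, fertilization and the first cleavages run, and a fully grown oocyte is largely silent in transcription. It surrounds itself with the zona pellucida, signals to the cumulus cells through secreted growth factors of the TGF-β family, and keeps a subcortical maternal complex, maternal chromatin proteins and RNA-binding proteins for the embryo. An old oocyte is known for failing cohesion between chromosomes, for mitochondrial decline and for altered protein turnover.

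The values are FPKM, fragment numbers scaled to the length of the gene and the size of the library, and a difference is the mean of log2(FPKM + 1) in Aged + LRP1high minus that in Young. This scale understates the change of low genes. Of 55335 gene identifiers, 28004 reached an average of 1 FPKM across the 12 oocyte libraries of the series and were tested with limma.

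The Young libraries did not resemble each other, and 1 of them held almost no oocyte marker RNA. Aligned sequence came to 1.35, 3.02 and 3.40 gigabases in Young and 3.15, 2.29 and 2.72 gigabases in Aged + LRP1high. Genes with an FPKM of at least 1 numbered 19690, 3135 and 11452 in Young and 11026, 8071 and 4525 in Aged + LRP1high. The 10 oocyte markers had a median FPKM of 0.892, 84.9 and 595 in Young and of 799, 687 and 161 in Aged + LRP1high. In the library labelled Young replicate 1, 88.4% of the TPM (the length-scaled share of transcripts) fell on 12 repeat-like predicted genes that share sequence with Gm10800, against at most 1.73% in the other 5 libraries. Young replicate 2 had oocyte markers at a lower level and few detected genes. The lists and the main genes are therefore given with and without Young replicate 1. The 2 Aged libraries had 0.578 and 0.791 aligned gigabases, and 48.6% and 19.7% of their TPM fell on the repeat-like genes. Their median oocyte marker FPKM was 11.6 and 716.

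**Figure D1:**
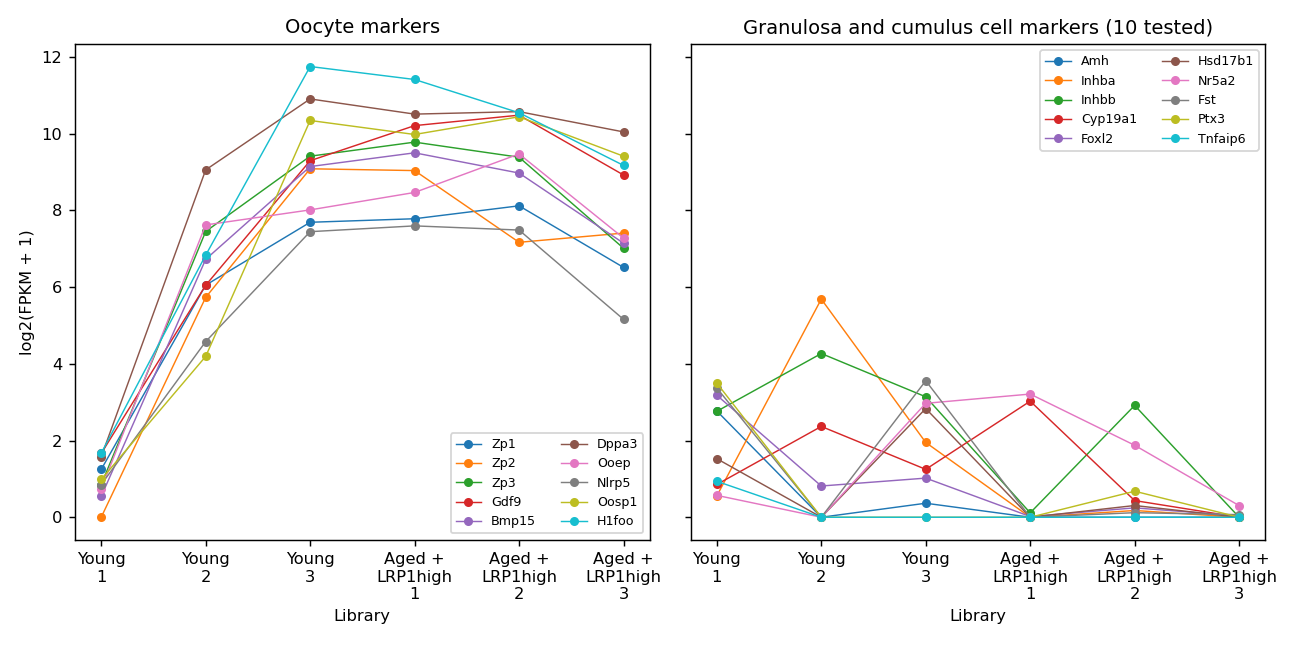
Each point is the log2(FPKM + 1) of a marker gene in 1 library, the 3 Young libraries on the left and the 3 Aged + LRP1high libraries on the right of each panel, and lines only join the points of a gene. The left panel holds the 10 oocyte markers, whose median FPKM was 0.892 in Young replicate 1 and 161 to 799 in Aged + LRP1high, and the right panel the 10 tested granulosa and cumulus cell markers.

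Levels of the zona pellucida and of oocyte-secreted factors in Aged + LRP1high overlapped those of Young for all 10 genes tested. Gdf9 (chr11:53431023-53437904), an oocyte growth factor that acts on cumulus cells, was at 2.17, 65.1 and 626 FPKM in Young and at 1181, 1427 and 483 in Aged + LRP1high. Young replicate 3 lay within the Aged + LRP1high range, and the other Young libraries lay below it. The log2 difference was 4.20 ± 1.90 (SE, n = 3 per group, adjusted p = 1 by limma) and 2.2 ± 1.82 without Young replicate 1.

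Oosp1 (chr19:11667460-11691150), an oocyte-secreted protein, was at 0.978, 17.3 and 1296 FPKM in Young and at 1006, 1386 and 679 in Aged + LRP1high, again with Young replicate 3 inside the treated range. Zp3 (chr5:135980099-135988624), the zona glycoprotein to which sperm bind, was at 0.803, 174 and 679 FPKM in Young and at 876, 667 and 128 in Aged + LRP1high. Zp3 differed by 2.82 ± 2.12 on the log2 scale, and by 0.29 ± 1.84 when Young replicate 1 was left out. Bmp15, the partner of GDF9, stood at 0.458, 105 and 563 against 722, 501 and 140 FPKM. On the log2 scale the Young libraries spanned, in each of these genes, a wider range than the treated ones.

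The 250 bases before and 50 after the RefSeq start of 3 oocyte markers are shown because oocyte genes are known to be switched on through E-boxes, the motif CANNTG, which reads the same on both strands. They are joined by Smim10l1, the gene with the largest lower value in Aged + LRP1high described further on. Of the 10 oocyte markers, 6 matched a RefSeq promoter on GRCm38.p6. Each sequence is 5′ to 3′ on the strand of the gene, and capitals mark CANNTG.
Zp3, chr5:135979855-135980154, plus strand: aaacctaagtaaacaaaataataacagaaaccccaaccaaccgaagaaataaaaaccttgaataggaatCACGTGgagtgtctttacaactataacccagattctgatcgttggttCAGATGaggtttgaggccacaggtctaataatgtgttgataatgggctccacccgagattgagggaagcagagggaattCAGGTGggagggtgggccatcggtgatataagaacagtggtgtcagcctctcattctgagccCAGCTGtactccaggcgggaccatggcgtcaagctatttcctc
Oosp1, chr19:11691002-11691301, minus strand: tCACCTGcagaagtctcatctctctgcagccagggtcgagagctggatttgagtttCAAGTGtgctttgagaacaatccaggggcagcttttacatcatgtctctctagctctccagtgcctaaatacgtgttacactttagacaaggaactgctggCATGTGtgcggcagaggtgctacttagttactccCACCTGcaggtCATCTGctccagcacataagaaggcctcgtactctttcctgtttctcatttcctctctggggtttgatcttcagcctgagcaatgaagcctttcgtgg
H1foo, named H1f8 by RefSeq, chr6:115944681-115944980, plus strand: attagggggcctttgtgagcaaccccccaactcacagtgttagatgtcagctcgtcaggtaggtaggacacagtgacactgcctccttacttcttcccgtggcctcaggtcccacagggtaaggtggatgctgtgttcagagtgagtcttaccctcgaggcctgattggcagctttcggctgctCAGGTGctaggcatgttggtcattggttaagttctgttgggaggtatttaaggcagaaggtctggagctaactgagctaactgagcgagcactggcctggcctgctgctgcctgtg
Smim10l1, chr6:133104989-133105288, plus strand: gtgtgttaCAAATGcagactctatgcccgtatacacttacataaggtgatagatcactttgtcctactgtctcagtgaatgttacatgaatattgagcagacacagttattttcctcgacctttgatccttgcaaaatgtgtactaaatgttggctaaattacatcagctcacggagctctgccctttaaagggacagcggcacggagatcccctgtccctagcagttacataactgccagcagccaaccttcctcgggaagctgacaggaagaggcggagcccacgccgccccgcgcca
The Zp3 window holds 4 matches, the Oosp1 window 5, the H1foo window 1 and the Smim10l1 window 1. Of the matched markers not shown, the Bmp15 and Ooep windows hold 1 each and each Nlrp5 window 2. Of 32851 mouse promoter windows of this length, 72.31% hold at least 1, so a match describes the letters only.

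Genes of the subcortical maternal complex, which embryos need for cleavage, did not all show the same order of libraries. Nlrp5 was at 0.805, 22.9 and 173 FPKM in Young and at 192, 178 and 34.7 in Aged + LRP1high, and Padi6 was at 0.695, 14.8 and 310 against 391, 444 and 154 FPKM. In both genes Young replicate 3 lay between the Aged + LRP1high libraries and the other Young libraries lay below all of them. Tle6 was at 1.22, 432 and 205 against 409, 886 and 347 FPKM, with Young replicate 2 within the treated range and Young replicate 3 below it. The median difference of the 8 tested members was 2.76 on the log2 scale, and 0.59 without Young replicate 1. All 8 averaged 10 FPKM or more, and the 3277 protein-coding genes at that level had medians of 1.62 and 1.00, so the list lay above them with all libraries and below them without Young replicate 1. None of the 8 had groups that did not overlap.

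No gene in these 6 libraries passed limma with Benjamini-Hochberg adjustment, with a smallest adjusted p of 1. At an unadjusted p under 0.05 and a fold over 1.5, 830 genes (2.96% of all tested) were higher in Aged + LRP1high and 59 (0.211%) lower. Adjusted calls appeared on leaving out Young replicate 3, with 206 genes higher and 1 lower, and on leaving out none of the other 5 libraries. Without Young replicate 1 these shares were 0.986% and 0.379%. Among 3277 protein-coding genes averaging 10 FPKM or more in these libraries, called abundant from here on, the shares were 19.3% higher and 0.305% lower, or 5.4% and 1.37% without Young replicate 1. All 3 treated libraries lay above all Young libraries in 1.67% and below them in 0.603% of all genes tested, and in 8.94% and 0.244% of abundant genes. Against Young replicates 2 and 3 these shares were 3.07% and 1.24% of all genes tested and 9.03% and 3.2% of abundant genes. The median difference of these abundant genes was 1.62 on the log2 scale, or 1.00 without Young replicate 1, and every count given below is read against these shares. Where the genes counted were abundant, the shares of abundant genes apply. Nothing in the labels beyond the words for biological replicates says that replicates came from separate animals, so p-values measure a spread between libraries. The limma fit pooled that spread over all 5 oocyte groups, so its p-values, SE and intervals also draw on libraries outside this comparison. In a fit of the 6 libraries alone, 277 genes were higher and 63 lower at the same unadjusted p and fold. Fewer cells or less RNA per cell cannot be told apart in these libraries.

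**Figure D2:**
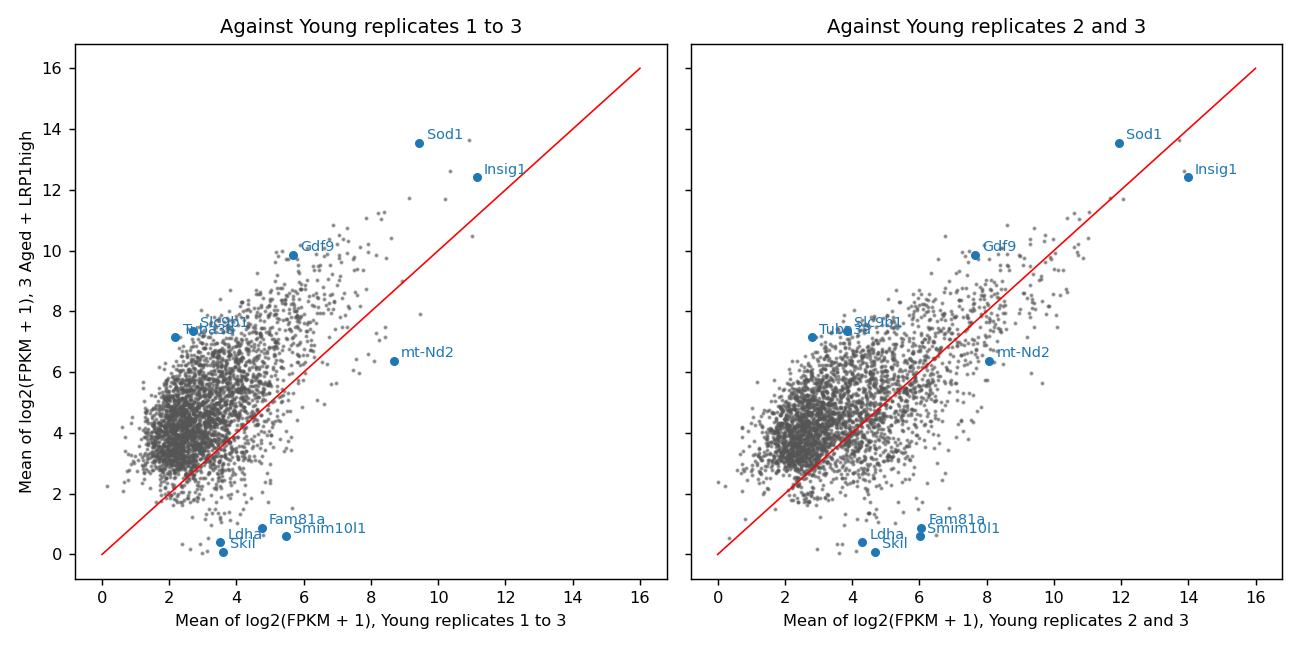
Each point is 1 of the 3277 abundant protein-coding genes, with its mean log2(FPKM + 1) in the 3 Aged + LRP1high libraries against that in Young, and the red line marks equal levels. Most points lie above the line against 3 Young libraries (median difference 1.62) and the cloud is nearer to it against Young replicates 2 and 3 (median difference 1.00), while Smim10l1, Fam81a, Skil and Ldha stay far below it.

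Between single libraries, the closest pair of the 6 crossed the groups. Young replicate 3 and Aged + LRP1high replicate 1 had 86.45% of the 3277 genes within 2-fold of each other, with a Spearman correlation of 0.866 across genes, which are not independent replicates. The Aged + LRP1high replicates shared 53.25% (1 and 2), 27.4% (1 and 3) and 27.19% (2 and 3) of genes within 2-fold. Young replicates 2 and 3 shared 12.94% and had a Spearman correlation of 0.407. Aged + LRP1high replicate 2 shared 53.43% with Young replicate 3, close to its share with replicate 1 of its own group and above its share with replicate 3.

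**Figure D3:**
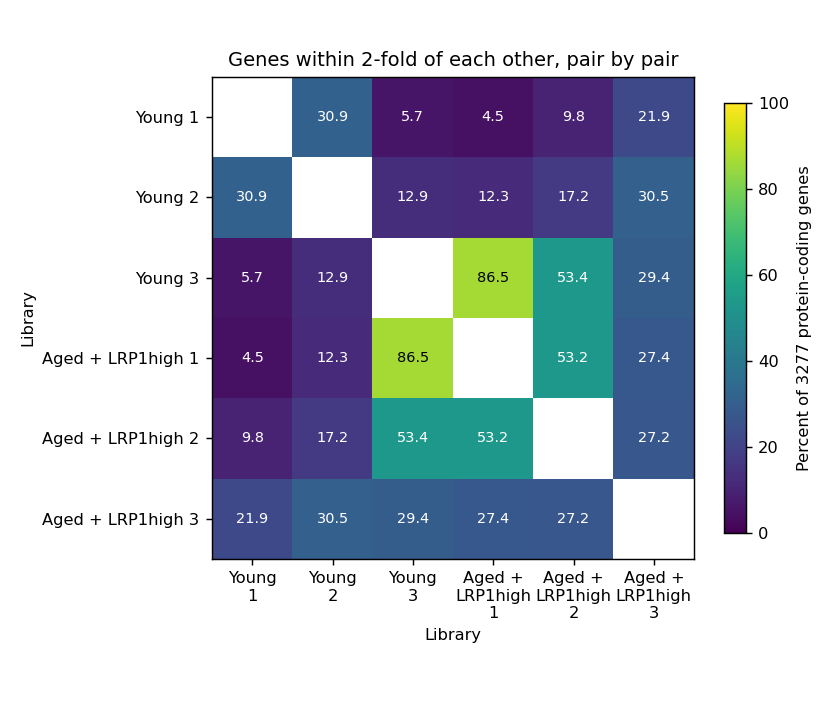
Each cell gives the percent of 3277 protein-coding genes whose FPKM + 1 lies within 2-fold between the libraries of its row and column, with the colour on the same percent scale. The highest value, 86.45%, joins Young replicate 3 and Aged + LRP1high replicate 1, and Young replicate 1 reaches at most 30.94% with any library.

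Genes detected in all treated libraries were mostly found in Young replicate 3 as well. An FPKM of at least 10 in all 3 Aged + LRP1high libraries was reached by 1473 protein-coding genes. Of these, 1430 (97.08%) reached it in Young replicate 3, 652 (44.26%) in Young replicate 2 and 76 (5.16%) in Young replicate 1. Taken library by library, 82.8% of 4407 genes at this level in Aged + LRP1high replicate 1, 77.01% of 3589 in replicate 2 and 83.09% of 2099 in replicate 3 reached it in Young replicate 3. In the other direction, of 4023 genes at this level in Young replicate 3, 3649 (90.7%) reached it in Aged + LRP1high replicate 1, 2764 (68.7%) in replicate 2 and 1744 (43.35%) in replicate 3. The 5 libraries other than Young replicate 1 had 648 such genes in common.

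The most abundant nuclear mRNAs of the treated oocytes were of the same order in Young replicate 3. Sod1 (chr16:90220754-90226329), the cytosolic superoxide dismutase, was at 20.8, 895 and 17124 FPKM in Young and at 9899, 12944 and 13185 in Aged + LRP1high. The Young libraries lay both below and above the treated ones, which differed little among themselves. Insig1, which holds back sterol synthesis in the endoplasmic reticulum, was at 43.5, 46186 and 5643 against 3861, 6427 and 6511 FPKM. Young replicate 2 was the highest library, as it was for Paip1, a partner of the poly(A)-binding protein. Paip1 was at 38.35, 27238 and 6789 FPKM in Young and at 8411, 14483 and 17249 in Aged + LRP1high. Alkbh5, an RNA demethylase, was at 9.38, 1748 and 1719 FPKM in Young and at 1665, 1735 and 3186 in Aged + LRP1high. Its difference was 2.74 ± 1.61 on the log2 scale, and 0.27 ± 0.63 without Young replicate 1. Pttg1, the securin that holds separase until anaphase, ranged from 2.12 to 5165 FPKM in Young and from 627 to 3796 in Aged + LRP1high.

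Among genes of maternal chromatin, the histone chaperone Npm2 was higher in every treated library than in Young. Npm2 (chr14:70647302-70659244) was at 0.992, 44.2 and 596 FPKM in Young and at 750, 1560 and 653 in Aged + LRP1high. All treated libraries lay above all Young libraries, by only 653 against 596 FPKM at the nearest. In Aged, Npm2 was at 26.2 and 752 FPKM, with replicate 2 within the treated range. The log2 difference was 4.60 ± 1.75 (SE, n = 3 per group, adjusted p = 1 by limma) and 2.48 ± 1.44 without Young replicate 1.

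Its relative Npm3 was at 4.42, 6.86 and 7.03 FPKM in Young and at 14.4, 69.9 and 19.4 in Aged + LRP1high, and it was listed at 0 in both Aged libraries. Its difference of 2.01 ± 0.64 was 1.83 ± 0.66 without Young replicate 1, but 0.89 after quantile normalization. H1foo, the linker histone of oocytes, was at 2.18, 113 and 3437 against 2719, 1490 and 575 FPKM, and Dppa3, which shields the maternal genome from loss of methylation, at 1.98, 530 and 1912 against 1454, 1521 and 1054 FPKM. Both overlapped between groups. Of 20 tested genes of maternal chromatin and transcription, 15 were abundant. At an unadjusted p under 0.05, 4 were higher and none lower, and 1 was higher without Young replicate 1. All were abundant, and of all abundant genes 19.3% were higher, or 5.4% without Young replicate 1.

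Of the maternal RNA-binding proteins, Zar1 had the clearest gap between the groups among the genes described here. Zar1 (chr5:72576806-72581254), which stores maternal mRNA, was at 5.11, 42.4 and 122 FPKM in Young and at 361, 582 and 179 in Aged + LRP1high. In Aged, Zar1 was at 20.8 and 422 FPKM, with replicate 2 within the treated range. Its difference was 3.40 ± 1.24 on the log2 scale, and 2.2 ± 1.21 without Young replicate 1. Its relative Zar1l was at 0.765, 88.0 and 327 against 417, 1508 and 328 FPKM, so that its groups touched. Btg4, which brings the deadenylase to maternal mRNAs at meiotic maturation, was at 3.94, 3097 and 913 against 998, 2346 and 719 FPKM and overlapped. Of 23 tested members of this list, 16 were abundant. At an unadjusted p under 0.05, 5 were higher and 1 lower, and 0 and 1 without Young replicate 1. The 5 were all abundant, and of all abundant genes 19.3% were higher.

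Regulators of meiosis had a median difference of 1.34 on the log2 scale, and of 0.56 once Young replicate 1 was set aside. Mos, the kinase that holds the MII arrest, was at 1.04, 226 and 125 FPKM in Young and at 136, 96.1 and 71.7 in Aged + LRP1high, and Ccnb1, cyclin B1, was at 0.720, 199 and 152 against 207, 92.9 and 98.0 FPKM. Without Young replicate 1 their differences were −0.78 ± 1.57 and −0.49 ± 1.34 on the log2 scale. Fbxo5, an inhibitor of the anaphase-promoting complex, was at 2.42, 5.77 and 84.9 against 155, 85.0 and 131 FPKM, with the nearest libraries of the groups almost equal. Bub1b, a kinase of the spindle checkpoint, was at 1.04, 3.33 and 123 against 147, 104 and 74.7 FPKM and overlapped. Of 29 genes tested, 21 were abundant. At an unadjusted p under 0.05, 4 were higher, all of them abundant, where 19.3% of all abundant genes were. None was lower, and without Young replicate 1 none was higher or lower.

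Cohesin, the ring that holds sister chromatids together in an oocyte for its whole life, had a median difference of 0.12 over 16 tested genes, with and without Young replicate 1. Of the 16, 5 were abundant. At an unadjusted p under 0.05, 1 gene was higher and none lower with all libraries, and 1 was higher and 1 lower without Young replicate 1. The higher gene was abundant in both settings, where 19.3% and 5.4% of all abundant genes were higher. The lower gene was Sgo2a, a shugoshin that protects cohesin at centromeres, at 0.352, 33.9 and 12.4 FPKM in Young and at 11.3, 0.406 and 0.0169 in Aged + LRP1high. Nipbl (chr15:8290617-8444463), which loads cohesin onto DNA, was at 0.378, 0.339 and 12.8 FPKM in Young and at 21.3, 30.3 and 19.1 in Aged + LRP1high, above every Young library. Its difference was 3.04 ± 0.92 on the log2 scale (SE, n = 3 per group, adjusted p = 1 by limma) and 2.49 ± 0.99 without Young replicate 1. In the DNA damage list, Xrcc1 (chr7:24546289-24573440), the scaffold of single-strand break repair, was at 4.29, 0 and 9.16 against 27.7, 78.2 and 67.0 FPKM. Ddb1, a subunit of a DNA damage-binding ubiquitin ligase, was at 0.680, 1.03 and 26.9 against 53.8, 51.9 and 32.4 FPKM. Both genes lay above Young in all treated libraries, with differences of 3.83 ± 0.86 and 3.33 ± 1.00 on the log2 scale, and of 4.07 ± 0.97 and 2.61 ± 1.05 without Young replicate 1. Of 35 tested DNA damage genes, 9 were abundant. At an unadjusted p under 0.05, 3 were higher, or 2 without Young replicate 1, and none was lower in either case. All were abundant, and of all abundant genes 19.3% were higher, or 5.4% without Young replicate 1.

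Genes of the mitochondrial genome, which encode core subunits of the respiratory chain, had lower means in the treated oocytes, and none passed the adjusted test. Of 13 genes, 12 had a lower mean in Aged + LRP1high, with a median difference of −1.26 on the log2 scale, against −0.14 for all genes and 1.62 for abundant ones. Without Young replicate 1 the median was −0.57, against 0.06 and 1.00, and 10 of 13 were lower. mt-Nd2 (chrM:3914-4951), a subunit of complex I, was at 926, 406 and 180 FPKM in Young and at 147, 70.2 and 52.9 in Aged + LRP1high, the only one of the 13 below every Young library. In Aged, mt-Nd2 was at 726 and 2999 FPKM. Its log2 difference was −2.30 ± 0.78 (SE, n = 3 per group, adjusted p = 1 by limma) and −1.71 ± 0.75 without Young replicate 1. mt-Co2 and mt-Co3, subunits of complex IV, differed by −0.94 ± 0.75 and −1.72 ± 0.96, and mt-Cytb, of complex III, by 0.09 ± 1.17. Without Young replicate 1 these were −0.73 ± 0.82, −1.37 ± 1.10 and 0.55 ± 1.37. Nuclear copies of these genes may take some of their reads.

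Summed over the 13 genes, FPKM was 8433, 1652 and 6702 in Young and 3422, 1805 and 1076 in Aged + LRP1high, which overlapped at Young replicate 2 (two-sided exact permutation test over 6 libraries, p = 0.3, adjusted p = 0.675 over 9 library summaries, with 0.1 the smallest p possible). Nuclear genes of the respiratory chain had a median difference of 1.62 over 83 tested genes, equal to that of all abundant genes, and 0.85 without Young replicate 1. Of the 83, 69 were abundant. At an unadjusted p under 0.05, 12 were higher, all of them abundant, where 19.3% of all abundant genes were, and 1 without Young replicate 1. That gene was Cox6b2 (chr7:4751792-4753094), the testis isoform of a complex IV subunit, at 5.94, 0 and 20.1 FPKM in Young and 45.3, 94.7 and 127 in Aged + LRP1high. Its difference of 3.97 ± 1.00 was 4.17 ± 1.18 without Young replicate 1. Cox6a1, another complex IV subunit, was at 5.65, 87.7 and 118 against 251, 487 and 247 FPKM.

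Several genes of the proteasome were higher in all treated libraries than in any Young library, while the list median lay below that of abundant genes. The proteasome degrades ubiquitin-tagged proteins, and its 19S particle receives them. The median difference over 49 tested genes was 1.29, and 0.79 without Young replicate 1, against 1.62 and 1.00 for abundant genes. Of the 49, 36 were abundant, and 6 of these lay above all Young libraries, where 8.94% of all abundant genes did. At an unadjusted p under 0.05, 8 were higher, or 3 without Young replicate 1, and none was lower. All were abundant, and of all abundant genes 19.3% were higher, or 5.4% without Young replicate 1. Those 3 were Psmd1, Psmd7 and Psmd9. Psmd9 (chr5:123169413-123250131), an assembly chaperone of the 19S particle, was at 1.92, 2.11 and 19.6 FPKM in Young and at 41.9, 38.8 and 43.2 in Aged + LRP1high, and at 22.6 and 18.5 in Aged. The treated libraries were close to each other and all lay above Young. Its difference was 2.88 ± 0.78 on the log2 scale (SE, adjusted p = 1 by limma) and 2.40 ± 0.79 without Young replicate 1.

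Psmd7 was at 4.73, 7.31 and 24.0 against 66.9, 34.7 and 304 FPKM, and Psmd1 at 4.18, 0.586 and 24.5 against 35.0, 49.4 and 29.9 FPKM. Genes of ubiquitin transfer and removal (the Usp, Rnf and Trim families) had a median difference of 0.04 over 177 tested genes, and 0.19 without Young replicate 1. At an unadjusted p under 0.05, 7 and 2 were higher in these settings. Of the 47 abundant ones 7 and 1 were, where 19.3% and 5.4% of all abundant genes were. Usp2, a deubiquitinase, was at 6.03, 0 and 59.6 against 132, 99.2 and 76.5 FPKM. Chaperones had a median difference of 1.24 over 29 genes that was 0.15 without Young replicate 1. Hsp90aa1, the inducible HSP90, was at 9.73, 226 and 664 against 929, 1586 and 4165 FPKM, each treated library above the highest Young library.

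Ribosomal proteins of the cytosol had a median difference of 1.5 over 83 tested genes and 0.46 without Young replicate 1, below the 1.62 and 1.00 of abundant genes. Rpl19 was at 5.53, 2.44 and 111 against 127, 340 and 206 FPKM and lay above Young in every treated library. Of the 83, 78 were abundant, and 2 of these lay above all Young libraries, where 8.94% of all abundant genes did. At an unadjusted p under 0.05, 7 cytosolic ribosomal genes were higher with all libraries and none without Young replicate 1. The 7 were all abundant, and of all abundant genes 19.3% were higher. Among 77 tested mitochondrial ribosomal proteins, 41 of them abundant, the median was 0.84, or 0.64 without Young replicate 1. At an unadjusted p under 0.05, 7 and 3 genes were higher in these settings. Of the abundant ones 6 and 2 were, where 19.3% and 5.4% of all abundant genes were. Mrps25 was at 0.212, 1.82 and 15.8 against 16.2, 62.4 and 157 FPKM, with a nearest gap of 15.8 to 16.2, and Mrpl45 at 1.63, 0 and 30.7 against 39.2, 34.0 and 88.6 FPKM.

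**Figure D4:**
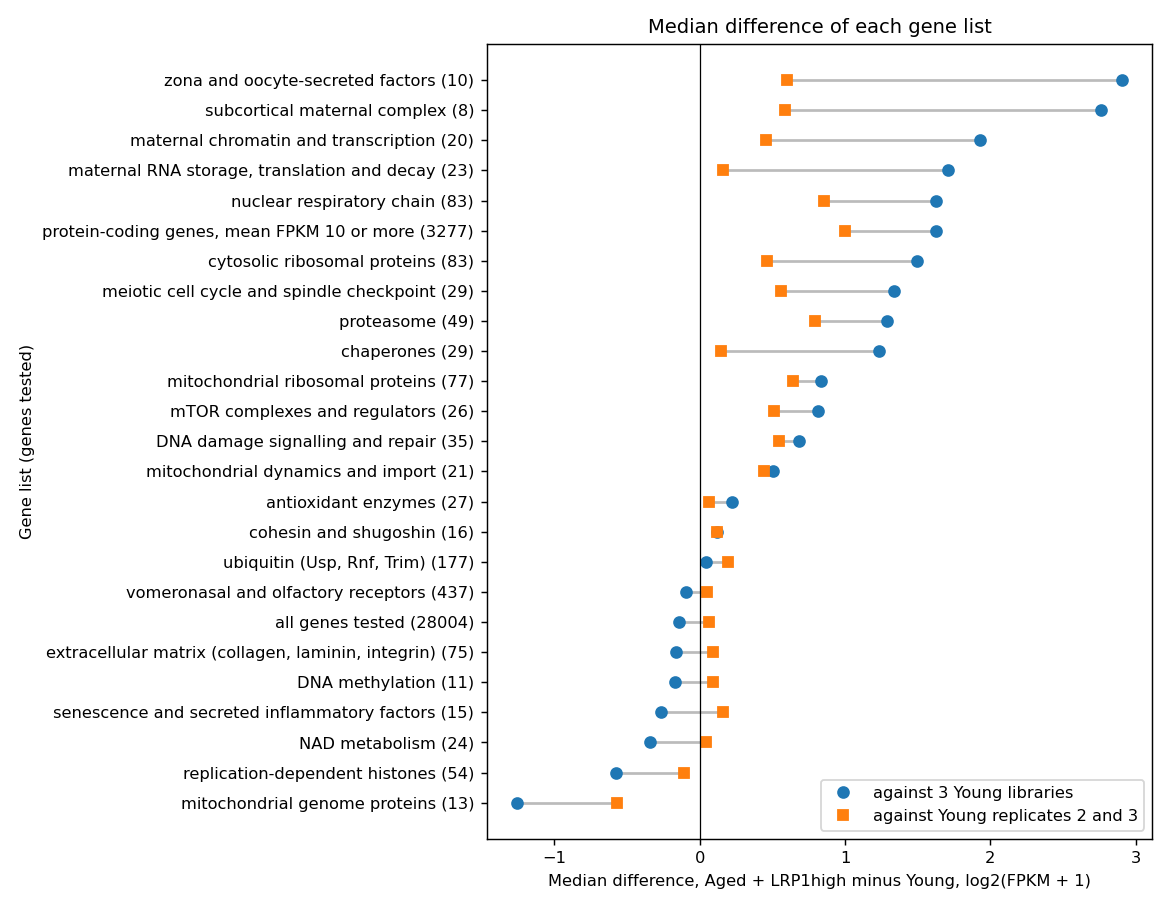
For each gene list, the circle gives the median difference in log2(FPKM + 1) of Aged + LRP1high minus 3 Young libraries and the square the same against Young replicates 2 and 3, with the number of tested genes in parentheses. The oocyte lists move most between the settings (2.76 to 0.59 for the subcortical maternal complex), and the mitochondrial genome list lies on the lower side in both (−1.26 and −0.57).

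Other lists, of metabolism, signalling, histones and matrix, had median differences between −0.57 and 0.81. Antioxidant enzymes had a median difference of 0.23 over 27 genes (0.06 without Young replicate 1), NAD metabolism −0.34 over 24 (0.04), mitochondrial dynamics and import 0.50 over 21 (0.45), DNA methylation −0.17 over 11 (0.09), and secreted inflammatory factors of senescence −0.27 over 15 (0.16). With TPM rescaled after removal of the repeat-like genes, which moved the median of all genes to −0.65, the small positive medians of the cohesin, ubiquitin and antioxidant lists turned negative (−0.04, −0.44 and −0.02). Sirt6, an NAD-dependent deacylase, was at 4.91, 356 and 318 FPKM in Young and at 364, 791 and 1001 in Aged + LRP1high, against 37.8 and 61.2 in Aged. Its groups did not overlap, but 356 and 364 FPKM lay side by side.

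The regulators of mTOR had a median of 0.81 over 26 genes and 0.51 without Young replicate 1. Rraga, the Rag GTPase that brings mTORC1 to the lysosome, was the 1 gene of this list at an unadjusted p under 0.05, and no gene was without Young replicate 1. Replication-dependent histone genes had a median of −0.57 over 54 genes and −0.11 without Young replicate 1. Collagens, laminins and integrins had a median of −0.16 over 75 genes and 0.09 without Young replicate 1. In that list, Col22a1 (chr15:71795795-72034227), a collagen, was at 0.469, 0 and 3.30 FPKM in Young and at 10.9, 28.2 and 33.2 in Aged + LRP1high, with Aged at 7.22 and 6.07. The treated libraries lay well above Young, by 3.63 ± 0.71 on the log2 scale (SE, adjusted p = 1 by limma) and by 3.46 ± 0.77 without Young replicate 1. The 20 genes that the study names for oocytes, chosen on these libraries, had a median of −0.29, or 0.05 without Young replicate 1, and none was at an unadjusted p under 0.05 in either setting.

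In abundant protein-coding genes, groups that did not overlap together with an unadjusted p under 0.05 gave 257 genes higher and 6 lower in Aged + LRP1high. The 12 with the largest higher value had log2 differences of 4.44 to 4.96 and encode proteins of varied roles. Tuba3a (chr6:125278274-125286042), an α-tubulin with near-identical copies whose reads may be split, was at 0.886, 1.16 and 21.9 FPKM in Young and at 67.5, 197 and 207 in Aged + LRP1high. Slc9b1 (chr3:135348029-135397827), a sodium/proton exchanger, was at 0.328, 2.38 and 59.9 against 132, 176 and 192 FPKM. In both genes the lowest treated library was more than 2-fold above the highest Young library. In Aged, Tuba3a was at 3.14 and 86.8 FPKM, with replicate 2 within the treated range, and Slc9b1 at 9.36 and 10.3 FPKM, below it. Their differences were 4.96 ± 1.27 and 4.67 ± 1.12 on the log2 scale, and 4.33 ± 1.48 and 3.53 ± 1.03 without Young replicate 1.

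Lmna, the nuclear lamin A/C, was at 2.48, 0.792 and 103 against 271, 127 and 364 FPKM. The translation initiation factors Eif2s2 and Eif5b were at 1.11, 23.9 and 269 against 344, 718 and 909 FPKM and at 0.824, 3.98 and 109 against 180, 231 and 265 FPKM. In these genes Young replicate 3 was nearest to the treated libraries and Young replicates 1 and 2 were low. The same held for Rraga (0.270, 6.16 and 159 against 260, 374 and 410 FPKM), for the splicing factor Slu7 (1.15, 0 and 57.3 against 71.5, 78.7 and 488 FPKM), for the Mediator subunit Med19 (0.755, 0.651 and 50.2 against 96.9, 99.7 and 158 FPKM) and for Ninj2 (0.473, 0 and 141 against 173, 143 and 207 FPKM). The dynein light chain Dynlt1a, which has near-identical copies, was at 0.763, 14.4 and 101 against 578, 201 and 601 FPKM. The chromatin remodeller Chd6 was at 1.47, 0 and 4.14 against 5.35, 68.7 and 292 FPKM, with Aged + LRP1high replicate 1 close to Young. In Aged replicate 2, Ninj2 (169 FPKM) and Chd6 (13.8 FPKM) lay within the treated range. Lmna, Eif2s2, Eif5b, Rraga, Slu7, Med19 and Dynlt1a lay below it there. Npm2, given above, was the other gene of these 12.

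**Figure D5:**
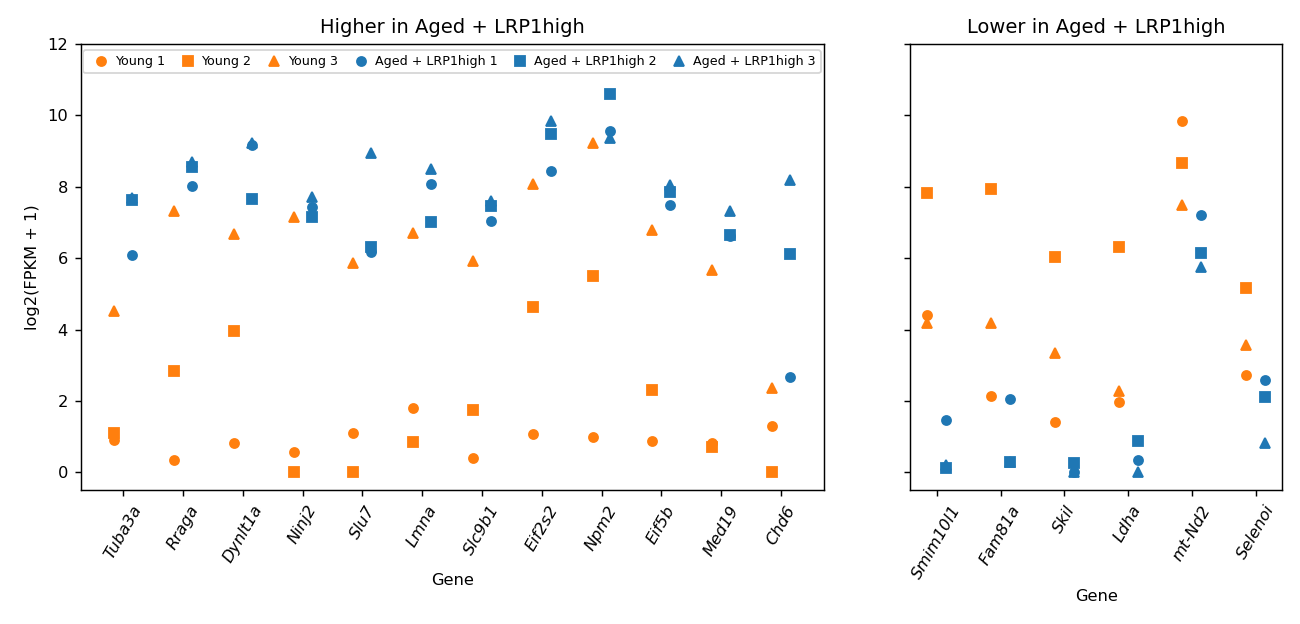
Each point is the log2(FPKM + 1) of a gene in 1 library, orange for Young and blue for Aged + LRP1high, with the replicate number given by its shape. The 12 genes on the left are higher in all treated libraries, with Young replicate 3 the nearest Young library in each, and the 6 genes on the right are lower in all treated libraries.

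Apart from mt-Nd2 and Selenoi, the 6 lower genes were at no more than 3.15 FPKM in the treated oocytes. Smim10l1 (chr6:133104909-133110899), a small integral membrane protein, was at 20.4, 227 and 17.3 FPKM in Young and at 1.77, 0.0941 and 0.143 in Aged + LRP1high, with Aged at 0.741 and 2.53. Each Young library, also the one nearly without oocyte markers, lay above each treated library, by 17.3 against 1.77 FPKM at the nearest. The log2 difference was −4.88 ± 0.94 (95% interval −6.95 to −2.82, adjusted p = 1 by limma) and −5.42 ± 1.03 without Young replicate 1. Ldha (chr7:46841475-46855627), lactate dehydrogenase A, was at 2.88, 79.1 and 3.86 against 0.258, 0.828 and 0 FPKM, a difference of −3.12 ± 1.12, or −3.90 ± 1.21 without Young replicate 1.

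Skil, a repressor of TGF-β signalling, was at 1.67, 64.3 and 9.06 FPKM in Young and was listed at 0 in Aged + LRP1high replicates 1 and 3 and at 0.206 in replicate 2. Fam81a was at 3.42, 246 and 17.0 against 3.15, 0.215 and 0.226 FPKM, so that Aged + LRP1high replicate 1 nearly reached Young replicate 1. Selenoi, an enzyme of phosphatidylethanolamine synthesis, was at 5.68, 34.7 and 10.8 against 5.04, 3.31 and 0.775 FPKM. In the nuclear genes of this group the highest value was always that of Young replicate 2. Without that library the log2 differences were −3.71 for Smim10l1, −2.28 for Fam81a, −2.28 for Skil, −1.72 for Ldha and −1.31 for Selenoi.

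Markers of granulosa and cumulus cells, which enclose the oocyte, had a lower sum in the treated libraries, also without Young replicate 1. Their summed FPKM was 44.1, 73.6 and 37.5 in Young and 15.5, 10.8 and 0.307 in Aged + LRP1high, so the groups did not overlap (two-sided exact permutation test over 6 libraries, p = 0.1, the smallest possible, adjusted p = 0.675 over 9 summaries). Of 12 markers 10 were tested, of which 3 were lower at an unadjusted p under 0.05 and none higher, and 2 without Young replicate 1. Inhba and Fst, the activin βA subunit and the activin-binding follistatin, were at 0.470, 50.5 and 2.86 and at 9.33, 0 and 10.8 FPKM in Young, and at no more than 0.130 FPKM in Aged + LRP1high. Amh and Tnfaip6 were listed at 0 in all treated libraries, while Cyp19a1 and Nr5a2 were at 7.14 and 8.26 FPKM in Aged + LRP1high replicate 1, above every Young library. Whether RNA of these cells has a part in the lower genes was not tested. Markers of endothelial, immune, luteal, stromal and red blood cells summed, list by list, to at most 11.0 FPKM in any of the 6 libraries.

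Genes that should be silent in an oocyte gave a further measure of the libraries. Of 1422 vomeronasal and olfactory receptor genes, 111, 18 and 16 had an FPKM of at least 1 in Young and 18, 9 and 4 in Aged + LRP1high. Young replicates 2 and 3 thus had about as many as Aged + LRP1high replicate 1, and Young replicate 1 the most. Their median difference over 437 tested genes was −0.09, or 0.05 without Young replicate 1.

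Abundant genes with the most precise difference put bounds on the comparison. Among 440 protein-coding genes that averaged 100 FPKM or more, the narrowest 95% intervals were those of mt-Co2 (−2.59 to 0.72 on the log2 scale) and mt-Nd2 (−4.02 to −0.59). Tacc1, a protein of the spindle and centrosome, was at 14.2, 261 and 101 FPKM in Young and at 111, 120 and 172 in Aged + LRP1high. Its difference was 0.84 with an interval of −1.22 to 2.90, and −0.30 with −1.82 to 1.22 without Young replicate 1. Cdv3 was at 17.4, 51.8 and 85.1 against 113, 250 and 1000 FPKM and lay above Young in all treated libraries. Its interval was 0.93 to 4.68, and 0.22 to 4.15 without Young replicate 1. Even for these genes the intervals span more than 3 units of log2, so an equal level in treated and young oocytes was not shown for any of them.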

How the data were processed

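RNA of oocytes labelled as MII was sequenced in 12 libraries, in 5 groups taken from the titles. The study's methods describe oocytes released by rupturing the follicles of dissected ovaries and name no meiotic stage. The labels name the KAPA Stranded kit and the study's methods Smart-seq2. The authors aligned reads with HISAT2 2.2.1, computed values with StringTie 1.3.3b and deposited FPKM, TPM and coverage (a signal, the mean read depth over a gene) per gene. The submitters' notes name the build mm9, but 54577 of 55335 identifiers have the coordinates of GRCm38 (GENCODE M21), which are given. FPKM deposited in several rows of a gene was summed. Aligned gigabases are the median ratio of the deposited coverage to FPKM over 21693 single-exon genes, and no counts were used, so no counting interval was computed. FPKM was tested as log2(FPKM + 1) with limma 3.58.1 in R 4.3.3, all 5 groups in 1 model, for genes with a mean of at least 1, and a call needed a fold over 1.5 and a Benjamini-Hochberg adjusted p under 0.05. The code was tested on simulated data.

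The members were taken by library title, and both this choice and that of the gene lists were made with earlier results of these data known. Named genes were list members averaging 10 FPKM or more, the 15 most abundant protein-coding genes (among which repeat-like Gm genes were not described singly), the 12 with the largest difference in each direction among those at an unadjusted p under 0.05 without overlap, and the 12 with the narrowest intervals. Inhba, Fst, Amh, Tnfaip6, Cyp19a1, Nr5a2 and Sgo2a were named after their values were seen. Library summaries were compared with exact permutation tests. Alternatives were a pseudocount of 0.1, other filters, quantile normalization, TPM, the 6 libraries alone, trended variances, array weights, a replicate block and each library left out. Granulosa cell libraries were not used here.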

Additional observations from a re-analysis of the deposited data

How the results depend on the processing

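The main analysis called 0 genes with limma and Benjamini-Hochberg adjustment and had 830 higher and 59 lower at an unadjusted p under 0.05. Genes called numbered 2 with array weights (Bmp3 and Gm42303, both lower), 1 (Gm42303) in the libraries with a median oocyte marker FPKM of at least 20, and 0 to 207 on leaving out each library. The 207 came without Young replicate 3, of which 206 were higher and 1, Smim10l1, lower, and 0 were called on leaving out any one of the other 5 libraries. Genes higher were 519 with a pseudocount of 0.1, 404 with a mean FPKM of at least 10, 277 in the 6 libraries alone, 486 with trended and robust variances, 439 with array weights, 98 in the libraries with oocyte markers, 493 with TPM rescaled without repeat-like genes and 68 with the filter of 10 and without Young replicate 1. Genes lower were 119 without a filter, 5 with a mean FPKM of at least 10, 242 after quantile normalization, 303 with array weights, 240 with rescaled TPM and 26 with the filter of 10 and without Young replicate 1. Leaving out each library gave 276 (Young replicate 1) to 2128 (Young replicate 3) higher, with 290 without Young replicate 2 and 517 without Aged + LRP1high replicate 1, and 15 (Aged + LRP1high replicate 3) to 278 (Young replicate 2) lower, with 26, 98, 103 and 106 without Aged + LRP1high replicates 2 and 1 and Young replicates 3 and 1. The cause of these shifts was not tested. The oocyte marker level, the rescaled TPM and the joint filter were chosen after seeing the data.

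Deviations of libraries with the same replicate number correlated at −0.29, 0.0101 and −0.44. With so few values, and libraries that differed strongly within a group, these cannot decide whether the numbers pair the libraries. A fit with the replicate block called 0 genes and had 964 higher and 47 lower at an unadjusted p under 0.05. Over all alternatives the named genes gave 1082 values that moved by less than the spread within the groups, 22 that moved by more and 10 that passed the threshold. The 10 arose without Young replicate 3. The gene lists gave 518 that moved by less and 28 that moved by more. The sign was not part of this count, and the spread was wide. Insig1 was at 1.27 with all libraries and at −1.57 without Young replicate 1. Quantile normalization moved the median of all genes from −0.14 to 0.02 and rescaled TPM to −0.65.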

Other observations

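The genes listed for the study's oocyte aging score were chosen on Young against Aged libraries, so a difference between those groups is built into the list. The list used here holds 580 genes, and the study's text gives another number. Their median FPKM was 1.63, 0 and 1.97 in Young, 2.22, 0.636 and 0.107 in Aged + LRP1high, and 13.3 and 12.9 in Aged. Of 1422 vomeronasal and olfactory receptor genes, 934 and 215 had an FPKM of at least 1 in Aged, and 18, 9 and 4 in Aged + LRP1high. Whether this background has a part in the Aged medians was not tested. Among Young, 419 of the score genes were listed at 0 in replicate 2. The median difference of Aged + LRP1high from Young was −0.01 on the log2 scale, and 0.19 without Young replicate 1, with 287 genes above and 293 below 0.

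The genes called under the alternatives with array weights or oocyte markers were Bmp3 and Gm42303. Bmp3, a ligand of the BMP family, was at 1.08, 8.70 and 7.87 FPKM in Young and at 0.326, 0.0669 and 0.117 in Aged + LRP1high, with a difference of −2.28 ± 0.66 (SE, n = 3 per group). Gm42303, annotated as antisense, was at 2.88, 4.50 and 5.12 FPKM in Young, at 0.0560 in Aged + LRP1high replicate 2 and listed at 0 in replicates 1 and 3 and in both Aged libraries. Reads of an antisense gene and its partner cannot be told apart where the counting ignores strand. Both genes were named after their values were seen.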
